A study of Mus musculus with 2669 samples.

Results

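The cells described here are neurons of the medial ganglionic eminence (MGE) with reads of LHX6 and next to none of LHX8. A cell was counted as a neuron when TUBB3 and DCX, a neuronal tubulin and a microtubule protein of young migrating neurons, each reached 50 CPM (a gene's counts per 1000000 counts of the cell) and the cell cycle genes TOP2A and MKI67 each stayed below 10 CPM. Members had LHX6 at 20 CPM or more and LHX8 below 5 CPM. The rule gave 91 members among 193 MGE neurons, out of 1796 dissected MGE cells with at least 1000 detected genes and 50000 counts. The other 102 neurons fell into 54 with LHX8 at or above 5 CPM, of which 40 also had LHX6 at 20 CPM or more, and 48 that were low in both genes.

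Brain cells of CD1 mouse embryos, a wild-type outbred stock, were taken at E12.5 and E14.5 from the dorsal (dMGE) and ventral (vMGE) medial and the caudal (CGE) ganglionic eminence, with no treatment or allele named. Cells of 5 to 10 µm were caught on Fluidigm C1 chips, their polyadenylated RNA was copied at full length with Smart-seq v4 chemistry, and the libraries were read single-end. The MGE was represented by 6 chips of dMGE and 7 of vMGE at E12.5, and by 8 and 5 at E14.5. The chip was taken as the replicate, because no animal or litter is named, so the p-values below rest on how far chips differ, and technical variation may contribute to that.

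Lhx6 encodes a LIM homeodomain factor that is switched on downstream of Nkx2-1 as MGE cells leave the cell cycle. It is known to be needed for the migration and the specification of somatostatin and parvalbumin interneurons of the cortex. Lhx8, its close relative, is best known in ventral forebrain neurons, among them the cholinergic ones.

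LHX6, the gene that defined the members, ran from 29.1 to 16861 CPM in them with a median of 514 CPM (quartiles 202 and 1507). By group the median was 460 CPM in dMGE and 708 CPM in vMGE at E12.5, and 480 CPM and 778 CPM at E14.5. These ranges overlapped widely. Few cells lay close to the limits. Among the members, 3 had LHX6 between 20 and 40 CPM, and 1 neuron just outside had between 10 and 20 CPM. LHX8 was at 0 counts in 80 members and reached at most 2.92 CPM in the other 11, and 1 neuron with LHX6 was left out with LHX8 between 5 and 10 CPM. Some count of TOP2A or MKI67 was present in 67 of the 91 members, and the summed S, G2 and M phase list (24 genes) had a median of 492.7 CPM in members, with 61 of them at 100 CPM or more, and 702 CPM in the other neurons.

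**Figure D1:**
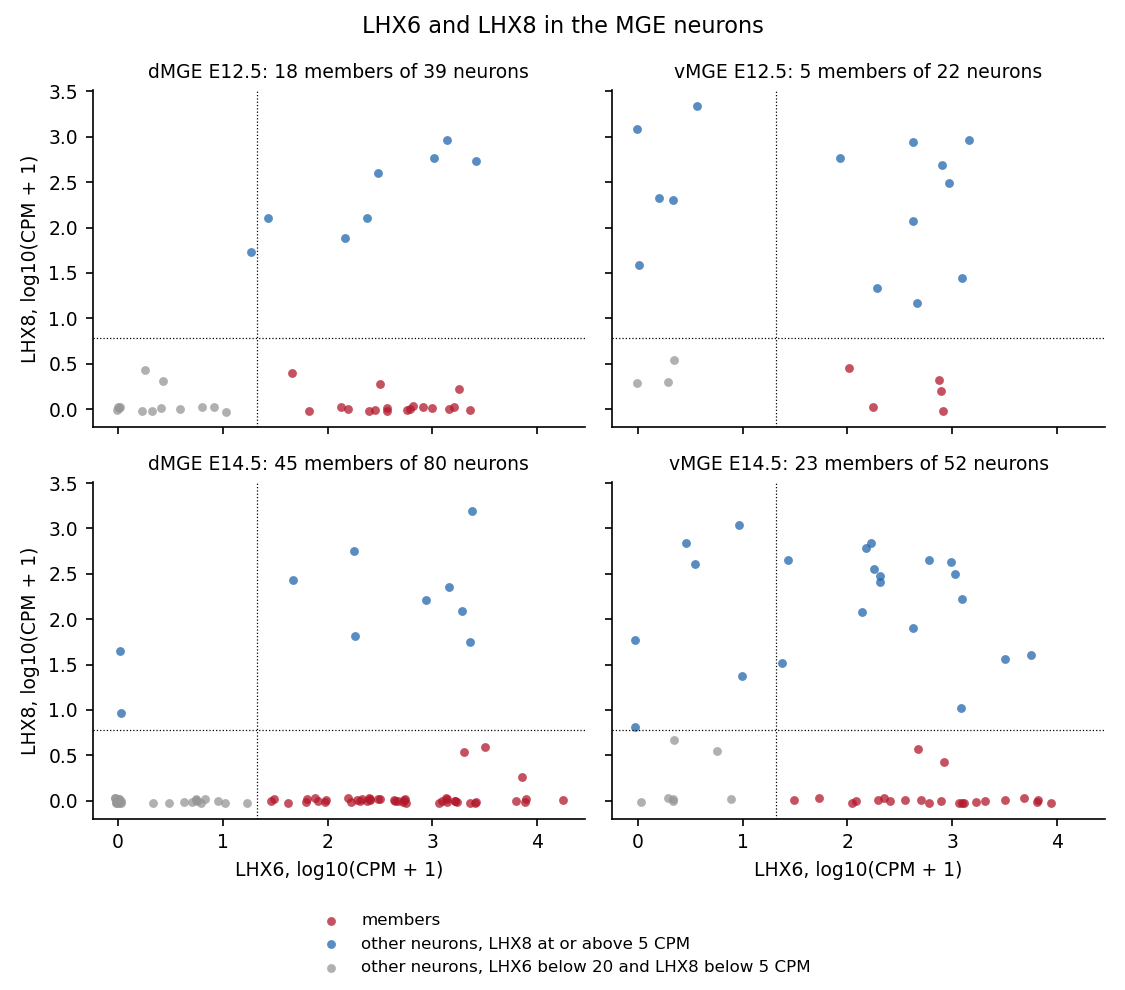
Each point is 1 of the 193 MGE neurons, placed by LHX6 (x axis) and LHX8 (y axis), both as log10(CPM + 1) with a small random shift, in 4 panels by region and age. Dotted lines mark 20 CPM of LHX6 and 5 CPM of LHX8; the 91 members lie in the lower right of the panels, most of them at 0 counts of LHX8.

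Members had a median of 641029 counts (125699 to 2134537) and 2696 detected genes, against 704958.5 counts and 2425 genes in the other neurons. They came from 18 of the 23 MGE chips that held any neuron. All 13 MGE chips of E12.5 carry numbers of 160 or above, whereas 9 of 13 chips of E14.5 carry lower numbers, so age and chip series cannot be told apart except on the 13 members of E14.5 chips 160 and above, of which 11 come from chip 193. All 96 index pairs were used on more than 1 chip, and no 2 cells had identical counts. Counts of both Xist and Y-linked genes, at any level above 0, were present in 18 members and in 31 of the 193 neurons. Their origin was not tested. No doublet caller was run.

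Members were found in every group, at shares of the neurons whose intervals overlap. They were 18 of 39 neurons in dMGE at E12.5 (46.2%, exact 95% binomial interval 30.1 to 62.8%), 45 of 80 in dMGE at E14.5 (56.2%, 44.7 to 67.3%), 5 of 22 in vMGE at E12.5 (22.7%, 7.82 to 45.4%) and 23 of 52 in vMGE at E14.5 (44.2%, 30.5 to 58.7%). These intervals cover counting error only, since cells of 1 chip share their source. Neurons with LHX8 were 8 of 39 and 10 of 80 in dMGE at E12.5 and E14.5, and 14 of 22 and 22 of 52 in vMGE. As a share of all cells passing the filter, members were 4.05% and 8.96% in dMGE and 1.04% and 6.25% in vMGE at the 2 ages.

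The difference between regions at E14.5 was smaller than the spread between chips. Over chips with at least 10 neurons, the share was 62.9% ± 11.2 in dMGE (SD, n = 3) and 53.7% ± 14.8 in vMGE (SD, n = 3) at E14.5, a difference of -9.19 percentage points (two-sided exact permutation test, p = 0.7, smallest possible p 0.1). At E12.5 only 1 chip per region had 10 neurons, with 58.8% in dMGE and 16.7% in vMGE, which allows no test. With chips of at least 5 neurons, a setting added after seeing the data, the E12.5 difference was -15.4 points (2 vMGE against 3 dMGE chips, exact permutation p = 0.4, smallest possible p 0.1). The share was 37.1 points higher at E14.5 than at E12.5 in vMGE (3 chips against 1, exact permutation p = 0.25, the smallest possible, 0.75 after Benjamini-Hochberg adjustment over 3 tests). At 5 neurons per chip that difference was 10.3 points (5 chips against 2, exact permutation p = 0.762), and with TOP2A and MKI67 below 50 CPM it was 16.8 points. In dMGE the same difference was 4.09 points (exact permutation p = 1). It changed sign under 4 other settings, to between -1.32 and -8.82 points. On chip 194, the only vMGE chip of E14.5 with a number above 160, 0 of 8 neurons were members, which allows a share of up to 37.5%.

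The members carried the transmitter and homeobox genes of GABAergic neurons. Gad2, one of the 2 enzymes that make GABA, was at 20 CPM or more in 82.4% of members (exact 95% interval 73 to 89.6%) and Gad1, the other, in 74.7% (64.5 to 83.3%). The DLX homeobox genes Dlx1 and Dlx5 reached that level in 85.7% and 65.9% of members. Sox6, a factor downstream of Lhx6, was present in 65.9% with a median of 151 CPM. Nkx2-1, the factor that specifies the MGE, was present in 35.2% of members (25.4 to 45.9%), with a median of 1.15 CPM. Satb1, a chromatin factor of MGE interneurons, was present in 31.9%. Maf, a bZIP factor of MGE interneurons, was present in 52.7%.

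Mature subtype genes were rare, with 1 exception. Npy, a neuropeptide, was at 20 CPM or more in 52.7% of members and reached 6269 CPM, whereas Sst, the somatostatin precursor, was at that level in 2 of 91 (2.20%) and at most at 124 CPM. Pvalb, Vip and Cck were at 0 counts in all 91 members. Npas1 was found in 1 member and Calb1, a calcium-binding protein, in 12. The interneuron peptide list of 14 genes had a median summed level of 122 CPM in members and 16.6 CPM in the other neurons. The shares of cells at 100 CPM or more were closer, 48 of 91 members and 48 of 102 others. The highest level was 6269 CPM in members and 8003 CPM in the others.

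Genes of migration and guidance ranged from most members to none. Epha4, an ephrin receptor, was at 20 CPM or more in 82.4% of members with a median of 1039 CPM, but by chip its share differed from that of other neurons by less than the SE (median over 12 chips 85.5% of members and 84.5% of others, difference -4.81 ± 5.11 points). Plxna2, a semaphorin receptor subunit, was present in 67%. The chemokine receptor Ackr3 was present in 48.4% and its partner Cxcr4 in 13.2%. Erbb4, the neuregulin receptor, was present in 34.1%, Robo1 and Robo2, the Slit receptors, in 41.8% and 31.9%, and Nrp1 in 9.89%. Nrp2 reached 20 CPM in 0 of 91 members, which allows a share of up to 3.30%.

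Markers of oligodendrocyte precursors and of pallial, vascular, immune and red blood cells were mostly at 0, whereas those of neighbouring or earlier cells were not. Summed lists for oligodendrocyte precursors, pallial excitatory neurons, endothelium, pericytes and microglia had a median of 0 CPM in members and in other neurons, and at most 1 member exceeded 100 CPM for any of them. The erythroid list also had a median of 0 CPM, with 6 members above 100 CPM. Members had a median of 662 CPM for the radial glia list (75 of 91 at 100 CPM or more), 578 CPM for intermediate progenitors (65), 350 CPM for striatal and lateral eminence genes (65) and 313 CPM for the CGE lineage (69). The other neurons had 745, 401, 321 and 292 CPM for these lists. Of the 10 genes of the pallial list, Neurod1, Neurod2, Slc17a7, Fezf2 and Emx1 were at 0 in every member. The rest, Neurod6, Eomes, Tbr1, Slc17a6 and Lhx2, had counts in at least 1 member, and 2 of them reached 20 CPM in a member. The highest summed level of this list in a member was 615 CPM. The cholinergic and ventral subpallial list (15 genes) exceeded 100 CPM in 5 members and in 21 of the other neurons. Isl1, a factor of cholinergic and striatal neurons, was at 20 CPM or more in 6.59% of members and 13.7% of the others. Zic1 and Zic4, a pair of zinc finger factors known from the septum, were found in 1 and 0 members and in 8 and 5 other neurons.

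**Figure D2:**
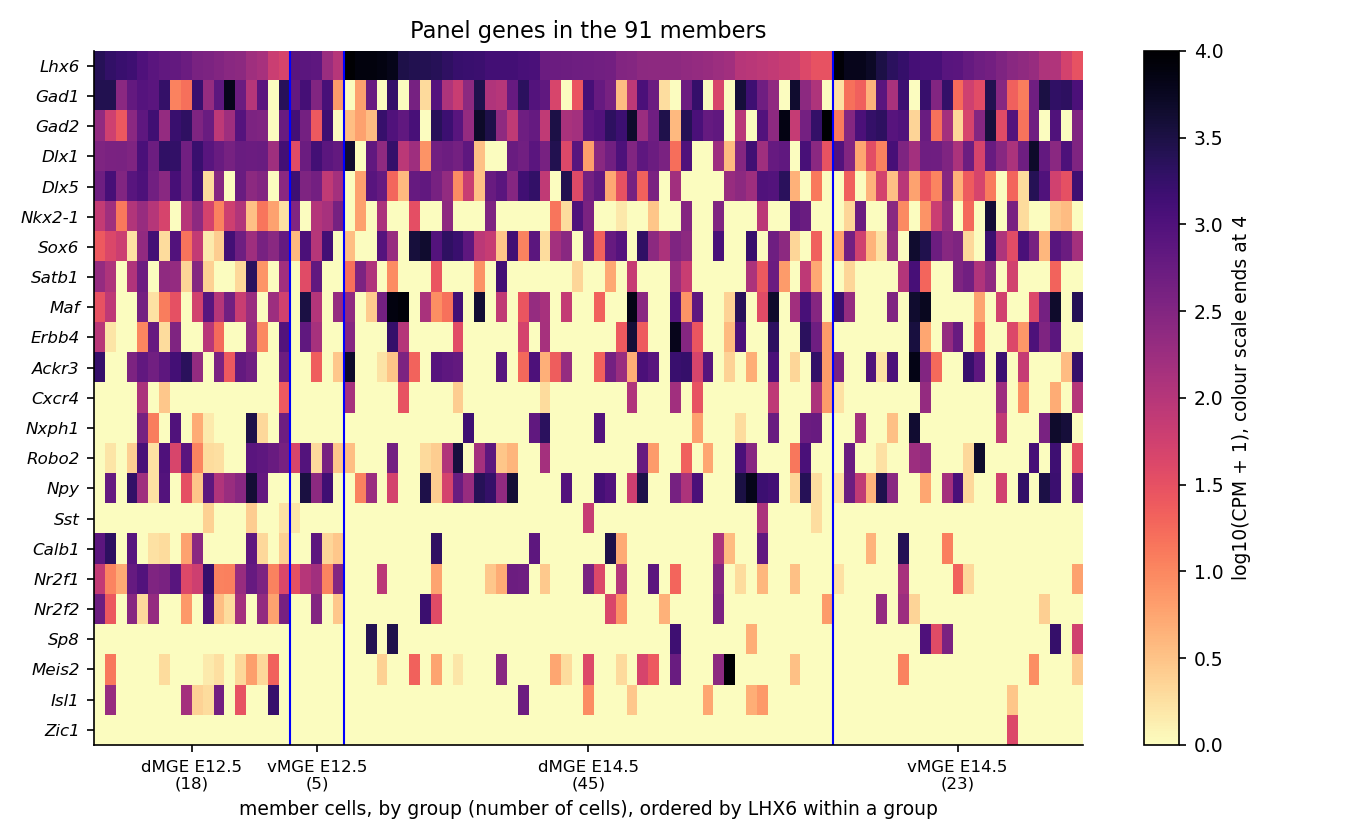
Each column is 1 of the 91 members, grouped by region and age and ordered by LHX6; each row is a gene, coloured by log10(CPM + 1). Gad1, Gad2, Dlx1 and Sox6 fill most columns, Sst only 2 above 20 CPM, and Nr2f1 and Nkx2-1 fill a larger part of the E12.5 columns than of the E14.5 columns.

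Members differed in which panel genes were detected, and the part of missed detection in this was not tested. Of 9 panel genes counted per cell, among them Cxcr4, Erbb4, Npy and Sst, members had between 0 and 6 at 20 CPM. Most often they had 3 (23 members) or 5 (20 members). Cxcr4 was at 20 CPM in 12 members, and Maf was at that level in all 12, against 45.6% of the 79 members without Cxcr4. Erbb4 was present in 8 of these 12 (66.7%, against 29.1% of the rest), and Nkx2-1 in 1 (8.33%, against 39.2%). Of 31 members with Erbb4, 25 had Maf (80.6%, against 38.3% of members without Erbb4). Npy was found in 62.5% of members with Maf and 41.9% of those without.

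The orphan receptors were also found together. Nr2f2 (COUP-TFII), an orphan receptor of caudal origin neurons, was present in 10 of 26 members with its paralog Nr2f1 (38.5%) and in 7.69% of those without. These are descriptions over cells that share chips. Depth moved with part of them: members with Nr2f1 had a median of 3488.5 detected genes, against 2511 without, and 17 of the 26 were from E12.5. Members with Cxcr4 had a median of 2593.5 genes, against 2759 without. The part of depth and age in these pairs was not tested.

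The main comparison set members against the other MGE neurons of the same chip. Counts were summed per class over chips with at least 5 cells of each, which left 6 chips (1 of dMGE at E12.5, 3 of dMGE and 2 of vMGE at E14.5), and were tested with edgeR's quasi-likelihood test with the chip as a block. No gene of 6295 passed a Benjamini-Hochberg adjusted p under 0.05 (0% called), while 139 had an unadjusted p under 0.05 (2.21%). limma on log2(mean CPM + 1) called none either, with 351 unadjusted, and DESeq2's Wald test called 332 (5.27%), 250 of them higher in members. The median log2 fold change over all genes was 0.39, so values below are best read against that shift. With sums over so few cells, 1 cell can carry a gene's count.

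A second test, added after the data had been seen, compared the share of cells at 20 CPM or more between members and other neurons of a chip. It used 12 chips with at least 3 cells of each class and limma on arcsine-transformed shares. None of 4904 genes passed after Benjamini-Hochberg adjustment (0% called), and 307 had an unadjusted p under 0.05 (6.26%). Over all these genes the median difference, members minus others, was -0.54 percentage points.

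Zeb2, a zinc finger repressor that directs MGE cells towards the cortex, had the smallest p of this test, which is why it is named. Across the 12 chips its share ran from 33.3 to 100% of members with a median of 75%, and from 0 to 80% of other neurons with a median of 34.8%. The difference was 35.2 ± 10.9 percentage points (SE over 12 chips), higher in members on 10 chips and lower on 2 (limma, adjusted p = 0.0816). On chip 92 all 14 members and 2 of 6 other neurons had Zeb2, on chip 193 9 of 11 and 4 of 11, and on chip 91 the order was opposite, 3 of 5 against 4 of 5. Without chip 91 or chip 174, the difference was 40.2 or 41.4 points with an adjusted p of 0.0127 or 0.025, and the adjusted p was 0.404 when cells were thinned to 50000 counts and 0.92 on untransformed shares. Over all cells Zeb2 was in 74.7% of members, 51.9% of neurons with LHX8 and 37.5% of those low in both.

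Plxna4, a plexin of semaphorin signalling, came second. It was at 20 CPM in 0 to 75% of members of a chip with a median of 31.7%, and in 0 to 50% of other neurons with a median of 0%. The difference was 25.9 ± 6.6 points, positive on 10 chips, negative on 1 and 0 on 1 (limma, adjusted p = 0.273). In the summed counts its log2 fold change was 3.73 ± 2.29 (SE, edgeR quasi-likelihood, adjusted p = 1), and that of Zeb2 0.58 ± 0.56 (adjusted p = 1).

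Other panel genes differed by less than the test could resolve. Maf was at 20 CPM in 52.7% of members and 26.5% of other neurons, and per chip the difference was 19.1 ± 11.2 points, positive on 8 chips and negative on 4 (limma, adjusted p = 0.695). Gad1 was at that level in 74.7% and 52.0%, with a difference of 19.0 ± 6.8 points, positive on 8 chips, negative on 1 and 0 on 3 (adjusted p = 0.695). Within the other neurons Gad1 was in 70.4% of those with LHX8 and 31.2% of those low in both. For Erbb4 the shares were 34.1% and 17.6% (16.2 ± 9.3 points), for Ackr3 48.4% and 30.4% (11.1 ± 10.4 points) and for Npy 52.7% and 42.2% (15.8 ± 12 points), each with an adjusted p above that of Maf. Cxcr4, too rare for the test, was in 12 of 91 members and 3 of 102 others, and in 0 of 54 neurons with LHX8, which allows a share of up to 5.56%.

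In the other direction, Meis2, a homeobox gene of striatal and caudal neurons, was at 20 CPM in 8.79% of members and 13.7% of others, a difference per chip of -14.4 ± 5.9 points (adjusted p = 0.698). Nr2f1 differed by -14.8 ± 7.4 points (adjusted p = 0.904). For Nkx2-1 the difference was -1.43 ± 7.62 points and changed sign under 4 other settings. Sox6, in 65.9% and 57.8%, differed by 6.3 ± 8.0 points. Over the 21 of 30 panel genes that could be tested, 13 differences were positive and 8 negative with a median of 6.12 points.

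**Figure D3:**
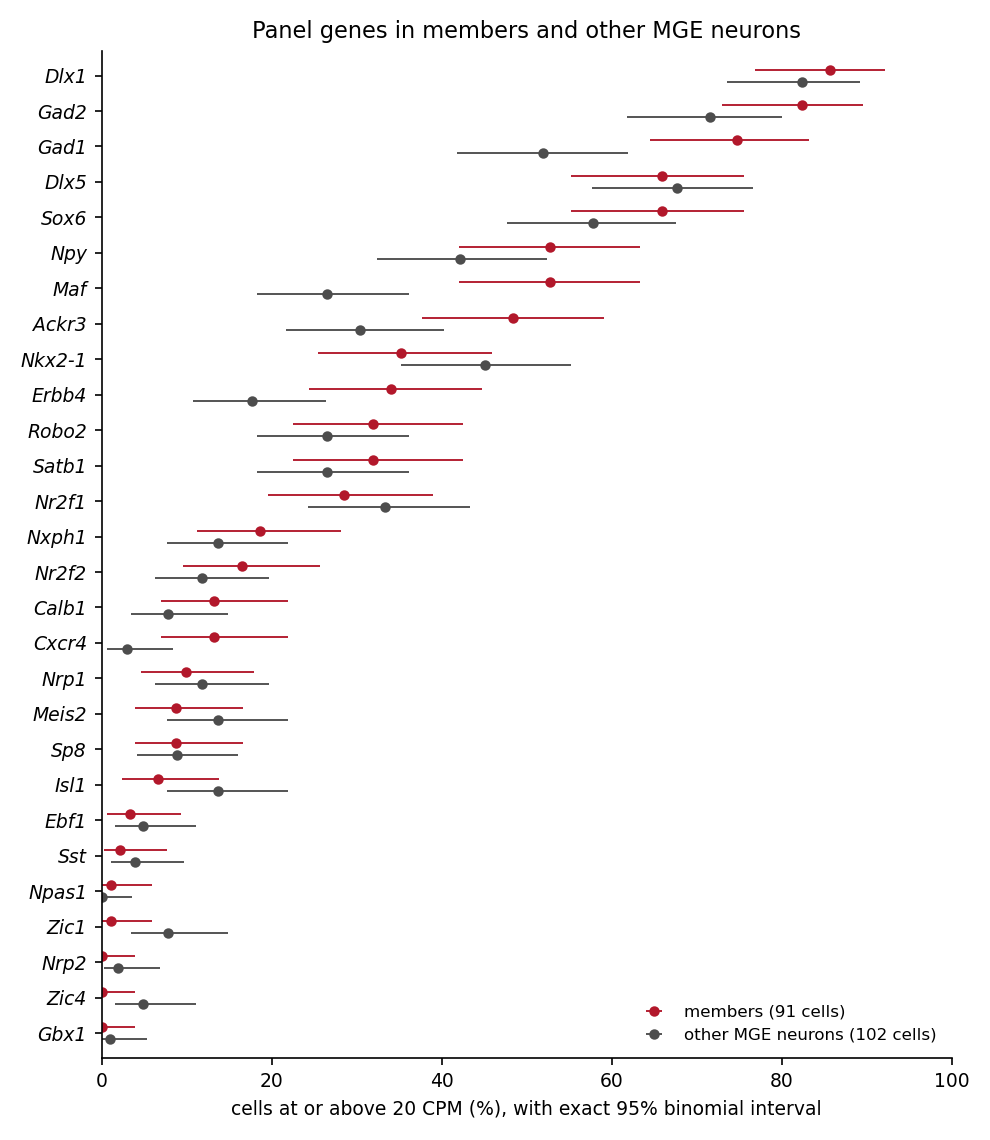
Share of cells at 20 CPM or more (x axis) for genes of the panel, in the 91 members and the 102 other MGE neurons pooled over chips, with exact 95% binomial intervals. The intervals cover counting error over pooled cells and not the spread between chips; Maf (52.7 and 26.5%) and Gad1 (74.7 and 52.0%) lie far apart here, but neither passed the test by chip.

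**Figure D4:**
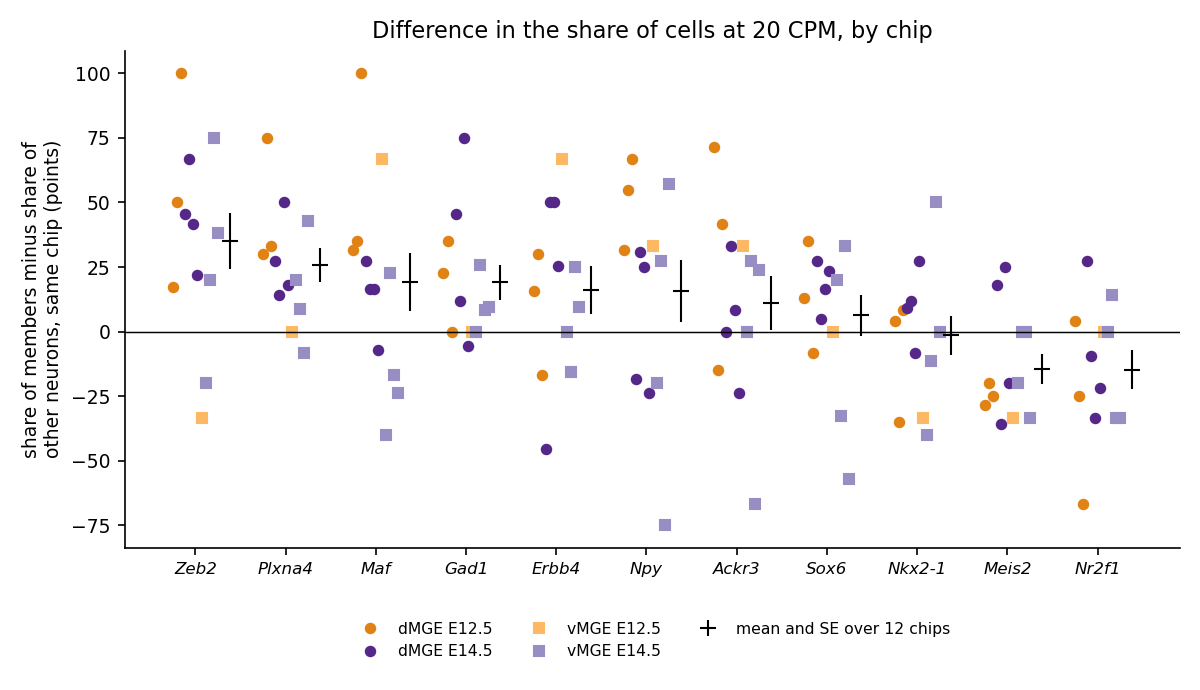
Each point is 1 chip with at least 3 members and 3 other neurons, and shows the share of members minus the share of other neurons at 20 CPM (y axis, percentage points); black dashes with bars give the mean and SE over 12 chips. Zeb2 and Plxna4 lie above 0 on 10 chips each, while Npy and Ackr3 scatter on both sides of 0.

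By list, no gene was called in either test. In the share test the MGE lineage and cortical interneuron list had 9 of 12 tested genes with a positive difference (median 6.20 points), migration and guidance 9 of 12 (6.70 points) and GABAergic identity 8 of 10 (8.12 points), beside 2319 of 4904 over all genes (-0.54 points). The S, G2 and M phase list, related to the genes used in the rule, had 3 of 13 positive (-4.86 points). In the summed counts the first 3 lists had medians of 0.66, 0.61 and 0.32 on the log2 scale, beside 0.39 for all genes. The CGE lineage list (0.94, 5 of 6 positive) and the dissociation and immediate early list (0.80, 4 of 7) had larger medians, and in the share test they had 3 of 4 and 7 of 7 positive (5.74 and 1.94 points). The summed level of the migration list had a median of 6270 CPM in members and 2592 CPM in other neurons.

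Against the nearest classes alone the chips were fewer still. Members were set against neurons with LHX8 on 2 chips (193 and 93), and none of 7208 genes was called (edgeR, 0%; 81 at an unadjusted p under 0.05, 1.12%; limma 0; DESeq2 176, 2.44%). Against neurons low in both genes on 3 chips, none of 7018 genes was called (edgeR, 0%; 279 unadjusted, 3.98%; limma 0; DESeq2 701, 9.99%), and the median log2 fold change of all genes was 1.15. Leaving out 1 of these 3 chips gave between 1 and 3 calls.

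By age, 2 genes were called between members and other neurons at E14.5 (edgeR quasi-likelihood test, 0.0164% of 12199; 215 unadjusted, 1.76%) and none at E12.5 (0%, 82 unadjusted, 0.672%; DESeq2 145; limma 0 with a pseudocount of 1 and 284 with 10), where 1 chip gave the values. Zfp281, a zinc finger factor, had 57.8, 1783, 401, 159 and 462 CPM in the members of chips 193, 91, 92, 93 and 99, and at most 0.81 CPM in the other neurons of the same chips (adjusted p = 0.000379). On chip 173 of E12.5 the values were 272 and 1.49 CPM. Smaller E12.5 chips ran the other way: Zfp281 was at 20 CPM in 0 of 4 members and 4 of 5 others on chip 176, and in 0 of 3 and 2 of 3 on chip 174, against 2 of 3 and 1 of 4 on chip 184. Over all chips, however, Zfp281 was at 20 CPM in 22 of 91 members and in 17 of 102 other neurons, and the call was lost in 9 of the other settings, among them limma, at least 3 cells per chip and class, and leaving out chip 91.

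Malat1, an abundant nuclear RNA, was lower in members at E14.5 (log2 fold change -0.45 ± 0.09, edgeR, adjusted p = 0.00117), and the difference itself changed with age (log2 -1.09 ± 0.21, adjusted p = 0.00252; 1 of 12199 genes, 0.0082%; 114 unadjusted, 0.935%). The E12.5 side of that test is chip 173 alone, so the spread comes from the E14.5 chips and chip 173 is assumed to vary like them. On the E12.5 chip members had 16832 CPM and other neurons 10803 CPM. On the 5 E14.5 chips members had 11064 to 17619 CPM and others 11929 to 34467 CPM, lower in members on 4 of 5, with chip 93 the exception. Both calls were lost without chip 99, where the others reached 34467 CPM (adjusted p = 1 and 0.168), and the first also without chip 193 (adjusted p = 0.171). Both were lost with DESeq2, with limma and with at least 3 cells per chip and class, where the log2 values were -0.03 and -0.01.

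Within the members, Nr2f1 had the second smallest p of the share test between E14.5 and E12.5, without passing it. Nr2f1, an orphan receptor of the caudal and ventral telencephalon, was at 20 CPM in 17 of 23 members at E12.5 (73.9%, exact 95% interval 51.6 to 89.8%) and in 9 of 68 at E14.5 (13.2%, 6.23 to 23.6%). On the E12.5 chips with at least 3 members it was found in 9 of 10, 3 of 4, 1 of 3 and 3 of 3 members (chips 173, 176, 184 and 174). On chips 92, 97, 99, 91, 93, 96 and 98 of E14.5, all numbered below 160, it was found in 1 of 14, 0 of 4, 2 of 11, 0 of 5, 1 of 7, 0 of 4 and 0 of 7. Chip 193, of E14.5 but in the higher series, lay between them with 5 of 11.

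Between ages, too, points and SEs are unweighted and on untransformed shares, whereas p-values come from weighted, arcsine-transformed ones. The mean difference in the share of members with Nr2f1 was -72.4 ± 13.3 percentage points (limma on 12 chips, adjusted p = 0.0724). This difference is the mean over both regions, and chip 174 with 3 members was the only vMGE chip of E12.5. Thinned to 50000 counts it was -82.0 points (limma, adjusted p = 0.011), and without chip 193 it was -77.0 points (limma, adjusted p = 0.000362). On chips numbered 160 and above only dMGE was compared, chip 193 against chips 173, 176 and 184, and the difference was -20.7 points. That value differs from the others in region as well as in chip series. The other neurons gave 63.2% at E12.5 and 15.6% at E14.5. Median detected genes in members were 3822 at E12.5 and 2517 at E14.5, and 2463 and 1731 after thinning. Over all 4889 genes tested, the median difference with age was -9.38 points.

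Several other genes were in fewer members at E14.5 without passing, and whole lists were too: the dissociation and immediate early list in 7 of 7 tested genes (median -34.8 points), the CGE lineage in 4 of 4 (-33.9), radial glia in 5 of 5 (-28.8) and intermediate progenitors in 9 of 9 (-28.2), beside -9.38 points over all genes. The part of these lists in the values of single genes was not tested. Nr2f2 was in 39.1% of members at E12.5, 8.82% at E14.5 and 0 of 13 on E14.5 chips 160 and above (-35.4 ± 7.1 points, limma, adjusted p = 0.33), which allows a share of up to 23.1%. Nkx2-1 was in 65.2%, 25% and 23.1% (-29.7 ± 15.0 points, adjusted p = 0.312). Maf was in 65.2%, 48.5% and 38.5%. Zeb2 ran the other way, in 56.5%, 80.9% and 69.2% of members (29.0 ± 12.2 points, adjusted p = 0.349).

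Only Gm10800, a predicted gene, was called with age in the share test (limma, 1 of 4889, 0.0205%; 642 unadjusted, 13.1%). It was in 2 of 23 members at E12.5 and 61 of 68 at E14.5, 85.5 ± 8.5 points higher (adjusted p = 0.00648), and in 10 of 13 on E14.5 chips 160 and above. After thinning the difference was 28.5 points (adjusted p = 0.266), and without chip 173 the adjusted p was 0.167. Other neurons gave 23.7% and 89.1%. Leaving out chip 193 raised the number of calls to 277, 265 of them lower at E14.5. The fit to chips 160 and above compared dMGE only, with chip 193 as its 1 E14.5 chip.

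Some of the largest age differences went with the chip series. Drap1, a transcription corepressor subunit, was in 78.3% of members at E12.5, 46.2% on E14.5 chips 160 and above and 1.82% on E14.5 chips below 160. Paip1, a translation factor, was in 4.35%, 15.4% and 78.2%, and Ncan, a brain proteoglycan, in 47.8%, 30.8% and 94.5%. Rbm27, an RNA-binding protein, was in 73.9%, 7.69% and 16.4%, low on both E14.5 series. These genes and Gm10800 were chosen after their values were seen.

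In the summed counts, 2 of 11152 genes were called with age (edgeR quasi-likelihood test, 0.0179%; 229 unadjusted, 2.05%), in a fit with 1 E12.5 chip. Dpysl2 (CRMP2), a microtubule regulator of growing axons, was 3.70 ± 0.80 higher at E14.5 on the log2 scale (adjusted p = 0.0456). The contrast was within dMGE only, chips 92, 99 and 193 of E14.5 against chip 173 of E12.5. The vMGE chips entered only the estimate of the spread. Dpysl2 values followed the chip series: 336 CPM on chip 173 of E12.5 and 65.7 CPM on chip 193 of E14.5. They were 4168 to 11522 CPM on the 5 E14.5 chips below 160, which include both regions. Zfp938 was called lower at E14.5, with reads in 9 of 91 members and 84.6% of its member counts in 1 cell.

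**Figure D5:**
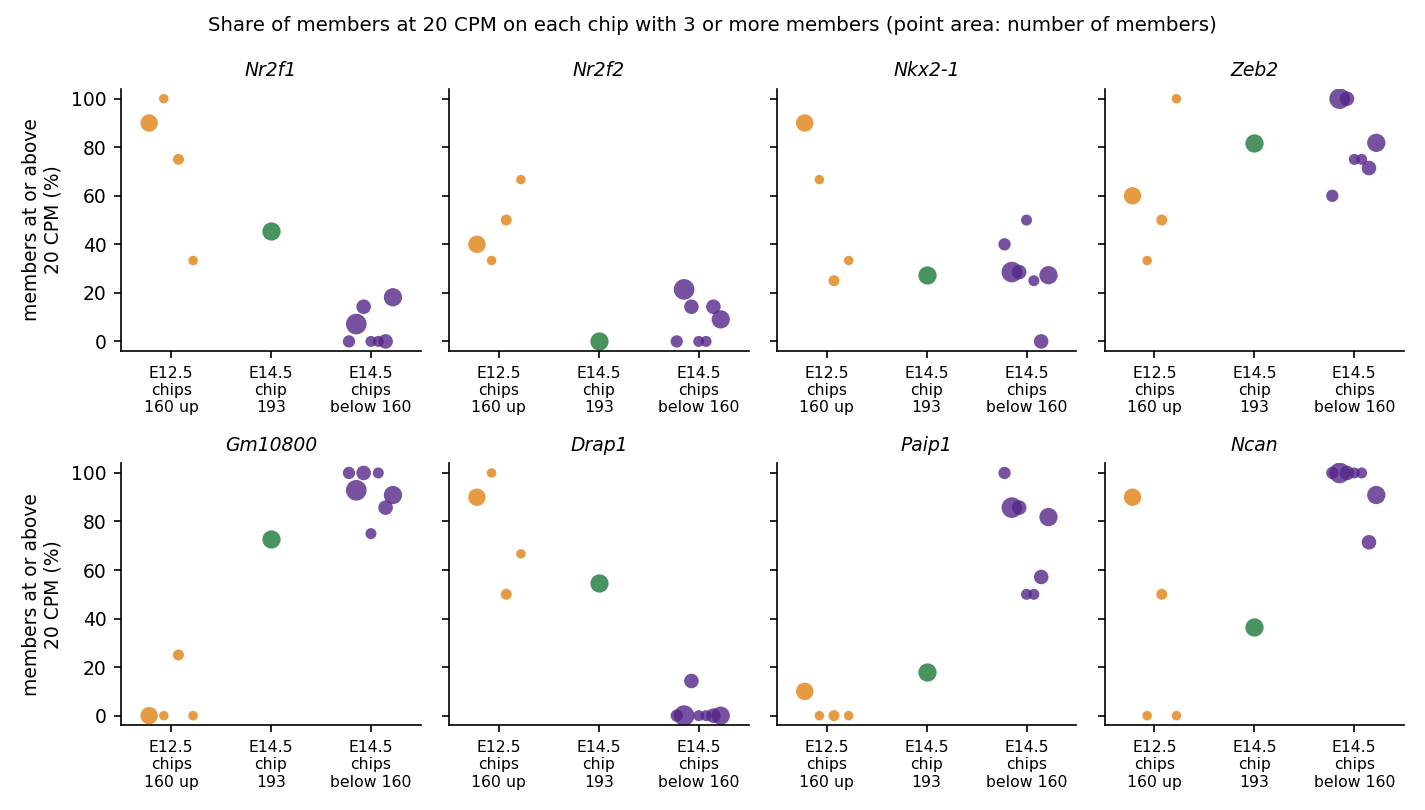
Share of members at 20 CPM or more (y axis) on each chip with at least 3 members, for 8 genes, with E12.5 chips (all numbered 160 or above), E14.5 chip 193 and E14.5 chips below 160 on the x axis; point area is proportional to the number of members. Chip 193 lies between the other sets for Nr2f1, near the E12.5 chips for Paip1 and near the other E14.5 chips for Gm10800.

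Few differences between dorsal and ventral members passed a test, with few chips on each side. At E14.5 the summed counts called 2 of 11152 genes between vMGE and dMGE members (edgeR quasi-likelihood test, 0.0179%; 845 unadjusted, 7.58%; DESeq2 657), Zfp938 and Abcb6. A single cell held 84.6% of all member counts of Zfp938 and 99.97% of those of Abcb6, and Zfp938 changed sign without chip 91. The share test called none of 4889 genes at E14.5 (0%; 195 unadjusted, 3.99%) and none at E12.5 (0%; 76 unadjusted, 1.55%), where only chip 174 gave vMGE members. At E14.5 Nkx2-1 was in 24.4% of dMGE and 26.1% of vMGE members, Sox6 in 62.2% and 69.6%, Maf in 51.1% and 43.5%, and Npy in 51.1% and 47.8%. Meis2 was in 8 of 45 dMGE members and 0 of 23 vMGE members, which allows a share of up to 13.0%. All 23 vMGE members came from chips numbered below 160, whereas 13 of the 45 dMGE members came from chips 160 and above. The edgeR fit likewise had chip 193 on the dMGE side only. Region is thus partly mixed with chip series at E14.5, and the part of each was not tested.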

How the data were processed

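Single-cell poly(A) RNA was measured in dMGE, vMGE and CGE cells. Per the submitters' processing notes, reads were handled with CASAVA, FastQC, STAR 2.4.0, SAMtools and HTSeq 0.6.1 on mm9. The authors deposited raw counts per gene and cell (37310 genes, 2669 cells), read counts without molecular identifiers. Their RPKM table did not enter. Names were matched by identifier for 32620 genes. The filter kept 2650 cells. CPM is a count times 1000000 over the cell's column sum, and a gene was taken as present at 20 CPM. Members and lists were chosen with earlier results of these data known.

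Summed counts per chip and class were tested with edgeR 4.0.16 (quasi-likelihood, TMM, filterByExpr, Benjamini-Hochberg, the 6 genes of the rule left out), in R 4.3.3. Chips needed 5 cells per class. The chip is a block between classes, as both come from it. Shares were tested with limma 3.58.1 on arcsine-transformed shares weighted by cell numbers. The percentage points and SEs printed with these tests are unweighted and on untransformed shares. An untransformed, unweighted version of the test was tried first and replaced. It called 314 genes between ages, where the version used called 1. The fits were also run on simulated data with known changes. For the share tests these data held no spread between chips beyond counting, so they cannot show how the tests do with such spread. Named genes are, per comparison, the 8 largest called changes each way at 20 CPM or more without predicted genes, up to 4 called genes per list, and a panel of 30 genes, some of which are not reported here. Others are named as chosen after their values were seen, which holds for Zeb2, Plxna4, Gm10800, Drap1, Paip1, Ncan and Rbm27. Alternatives were DESeq2 1.42.0, its size factors, every gene without the low count filter, log2 of mean CPM with a pseudocount of 1 or 10 in limma, other cell and gene limits, thinning to 50000 counts, no cells with Xist and Y-linked counts, and leaving out each chip. Members had 125699 to 2134537 counts, so a single read is below 20 CPM in each. The LHX8 limit of 5 CPM lacks this margin, since 1 read can exceed it in the neurons with fewest counts. The neuron of chip 99 counted as having LHX8 had 1 read in 121197 counts, which is 8.25 CPM.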

Additional observations from a re-analysis of the deposited data

Results flagged for a closer look

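In dMGE members of E14.5, 1 chip was flagged for Maf: 72.7% of its members (8 of 11, chip 99) were at 20 CPM, against 5 of 11, 7 of 14 and 2 of 4 on the other chips. In vMGE members of E14.5, 1 chip was flagged for Nr2f1, with 14.3% (1 of 7 members, chip 93) against 0% on the other chips, so that flag rests on 1 cell. These were 2 of 18 groups checked for a sample far from the rest. The limit assumes continuous values, so its rate of about 1 in 20 need not hold for shares of few cells. Neither flag is evidence that a chip differs. The difference in Malat1 between members and other neurons changed with age (log2 -1.09, edgeR quasi-likelihood, adjusted p = 0.00252), with 1 chip at E12.5 and the losses given above. Of 156 CGE neurons, outside the MGE comparisons, 49 met the same LHX6 and LHX8 limits (31.4%, exact 95% interval 24.2 to 39.3%).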

How the results depend on the processing

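Counts of called genes are edgeR calls at an adjusted p under 0.05 unless another test is named. Between ages, the fits to summed counts compared dMGE members only. The share test compared both regions, except on chips 160 and above, where it compared dMGE only with 1 E14.5 chip. DESeq2 called 332 genes between members and other neurons, 176 against neurons with LHX8, 701 against neurons low in both, 145 at E12.5, 357 at E14.5, 133 for the change with age, 657 between regions at E14.5 and 289 between ages; the counts at E12.5 and for the change with age moved by a few genes with the linear algebra library's settings, which were then held fixed. Without a low count filter the counts were 2 (other neurons), 2 (low in both) and 0 (ages). limma with a pseudocount of 1 called 0 at E14.5, 0 for the change with age, 0 between regions and 122 between ages, and with 10 it called 284 at E12.5, 0 at E14.5, 192 for the change with age, 0 between regions and 255 between ages. Without the chip as a replicate block, 1 gene was called against other neurons, 1 at E14.5 and 0 for the change with age. Without cells holding Xist and Y-linked counts, the counts were 1 (low in both), 3 (E12.5), 0 (E14.5), 3 (change with age), 4 (regions) and 0 (ages). With LHX8 at 0 counts they were 2 (E12.5), 2 (change with age), 1 (regions) and 0 (ages), and with LHX6 at 50 CPM 1 (regions) and 0 (ages). At 3 cells per chip and class they were 0 (E14.5), 0 (change with age), 4 (regions) and 5 (ages), at 2 cells 0 in each of the 4, and at 10 cells 0 (ages). With TOP2A and MKI67 below 50 CPM they were 0 (E14.5), 0 (change with age) and 8 (regions). Thinning gave 7 (regions), the covariate of detected genes 1 (ages), leaving out the cells richest in genes 3 (low in both), and chips 160 and above 1 (low in both). The share test called 0 between regions, 0 when thinned, and 1 between ages, 10 when thinned, 13 on chips 160 and above and 314 on untransformed shares.

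Leaving out 1 chip gave 0 to 0 calls against other neurons, 1 to 3 against neurons low in both, 0 to 1 at E12.5, 1 to 4 at E14.5, 0 to 1 for the change with age, 0 to 7 between regions and 0 to 6 between ages. In the share test it gave 0 to 1 against other neurons, 0 to 0 between regions at each age, and 0 to 277 between ages, 277 without chip 193 and 0 without chip 173. The share of members differed with age in dMGE by 0.551 to 10.6 points, in vMGE by 28.9 to 43.3, and between regions by -17.3 to -2.92 at E14.5 and by -42.2 at E12.5. With at least 5 neurons per chip the vMGE age difference fell to 10.3 points and the E12.5 region difference to -15.4. With TOP2A and MKI67 below 50 CPM they were 16.8 and -14.0, and without cells holding Xist and Y-linked counts 28.5 and -27.3. The dMGE value changed sign with LHX6 at 50 CPM (-1.32), LHX8 at 0 counts (-1.32), thinning (-1.80) and chips 160 and above (-8.82). Single genes that changed sign were Zfp938 between regions (-3.80 with LHX6 at 50 CPM, -3.82 with LHX8 at 0 counts, -3.76 without chip 91), Nkx2-1 against other neurons (4.0 points thinned, and -6.11 to 2.07 with 1 chip left out, positive without chips 91, 174 or 176), Nr2f2 (-0.996 to 11.1 with 1 chip left out, negative without chip 184) and Ncan with age (-10.3 on chips 160 and above). The cause was not tested in any of these.

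No paired analysis was made between regions or ages, because each chip holds 1 region and age and no label ties chips of different groups. Some dMGE and vMGE chips carry adjacent numbers, such as 92 and 93. What the numbers stand for is not given, so they were not used as pairs. The edgeR comparison of regions at E12.5 could not be fitted, since no vMGE chip had 5 members. Not run for too few chips were 10 cells per class against all 3 classes, 4 settings against neurons with LHX8, thinning against neurons low in both, thinning, chips 160 and above and no chip 173 in the fit of both ages, and chips 160 and above between regions. Few neurons per chip limit what these tests can call.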

Other observations

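The 49 CGE neurons that met the same limits can be set beside the MGE members by the share of cells at 20 CPM. Meis2 was in 42.9% of them and 8.79% of MGE members, Nr2f1 in 67.3% and 28.6%, and Nr2f2 in 32.7% and 16.5%. Erbb4 was in 53.1% and 34.1%, and Cxcr4 in 20.4% and 13.2%. Maf (55.1% and 52.7%), Gad1 (77.6% and 74.7%) and Nkx2-1 (28.6% and 35.2%) lay closer together. Regions were captured on separate chips, and these differences were not tested.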
